A study of Mus musculus with 9 samples.

Results

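Nuclear transport in cultured mouse cardiac fibroblasts was read from the mRNA levels of 44 genes among 56953 gene entries in 9 libraries. The 44 were chosen by gene symbol alone: the numbered importins (Ipo), importins alpha (Kpna), importin beta (Kpnb1), transportins (Tnpo), exportins (Xpo) and numbered nucleoporins (Nup). They divide into 23 carriers, namely 11 of the importin beta family, 6 importins alpha and 6 exportins, and 21 pore subunits. The family was picked on earlier results from these same libraries, among them the rise of Ipo7 with the JP2 virus. The members' differences between the virus groups are therefore given as descriptions of the fitted values, and the counts of called members lend no independent support. Carrier symbols outside the pattern (Cse1l, Snupn, Ranbp6, Ranbp17) and pore genes with other names (such as Tpr, Ahctf1 and the older symbols Nupl1 and Nupl2) are described separately.

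The cells were primary fibroblasts from the hearts of adult male wildtype C57BL/6N mice, plated after most cardiomyocytes had been settled out. All 3 groups received an adenovirus for 2 h and were collected at 72 h, so no uninfected cells are included in the comparison. The Ad-GFP virus carries green fluorescent protein and served as the control, Ad-JP2 carries junctophilin-2 (Jph2), which tethers the plasma membrane to the calcium store, and Ad-shJP2 carries a hairpin against it. Each group held 3 polyA RNA libraries. The labels do not say that replicates were separate cultures or animals, so p-values measure the spread between these libraries, which may be technical.

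Proteins and RNAs above a modest size cross the nuclear envelope only through the nuclear pore complex. Carriers of the importin beta family bind cargo, either directly or through an importin alpha adaptor that reads the classical nuclear localization signal, and exportins take cargo out. The direction is set by the small GTPase Ran, which is loaded with GTP in the nucleus by Rcc1 and discharged in the cytoplasm with the help of Rangap1. The pore is built from a Y-shaped outer scaffold, an inner ring, a channel lined with phenylalanine-glycine repeats, cytoplasmic filaments and a nuclear basket.

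Ipo7, Kpna4 and Xpo1 were high in Ad-JP2 libraries, and Nup62 and Nup50 were high in the libraries labelled Ad-shJP2. The 250 bases before the start of these 5 members are shown. They are the RefSeq sequences on GRCm38.p6, read 5′ to 3′ on the gene's strand, while the expression table was built on GRCm39. Capitals mark every match on either strand to the CCAAT box, to the GC box letters GGGCGG, to the TATA box letters TATAAA and to the palindromic motif of the factor NRF1. The windows lie at chr7:110018065-110018314 on the plus strand for Ipo7, chr3:69127093-69127342 on the minus strand for Kpna4 and chr11:23255791-23256040 on the plus strand for Xpo1. Those of Nup62 and Nup50 lie on the plus strand at chr7:44815838-44816087 and chr15:84923178-84923427.
Ipo7: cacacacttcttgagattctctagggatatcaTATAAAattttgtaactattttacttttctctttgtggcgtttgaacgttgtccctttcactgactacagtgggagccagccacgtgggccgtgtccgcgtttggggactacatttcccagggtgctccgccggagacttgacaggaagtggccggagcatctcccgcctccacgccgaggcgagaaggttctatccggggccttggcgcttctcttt
Kpna4: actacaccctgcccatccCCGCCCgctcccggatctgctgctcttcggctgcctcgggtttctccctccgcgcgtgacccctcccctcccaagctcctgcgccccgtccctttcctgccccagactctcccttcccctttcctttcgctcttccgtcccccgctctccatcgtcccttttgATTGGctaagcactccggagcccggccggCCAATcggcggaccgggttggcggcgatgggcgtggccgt
Xpo1: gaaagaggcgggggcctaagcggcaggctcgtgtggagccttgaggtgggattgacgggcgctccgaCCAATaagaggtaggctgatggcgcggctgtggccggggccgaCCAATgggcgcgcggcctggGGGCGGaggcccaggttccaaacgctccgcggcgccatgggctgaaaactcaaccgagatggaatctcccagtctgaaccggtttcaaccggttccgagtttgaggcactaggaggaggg
Nup62: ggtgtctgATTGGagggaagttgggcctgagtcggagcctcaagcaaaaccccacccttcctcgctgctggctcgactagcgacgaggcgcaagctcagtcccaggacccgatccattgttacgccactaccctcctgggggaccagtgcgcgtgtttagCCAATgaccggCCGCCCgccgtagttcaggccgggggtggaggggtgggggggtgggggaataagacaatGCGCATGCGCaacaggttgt
Nup50: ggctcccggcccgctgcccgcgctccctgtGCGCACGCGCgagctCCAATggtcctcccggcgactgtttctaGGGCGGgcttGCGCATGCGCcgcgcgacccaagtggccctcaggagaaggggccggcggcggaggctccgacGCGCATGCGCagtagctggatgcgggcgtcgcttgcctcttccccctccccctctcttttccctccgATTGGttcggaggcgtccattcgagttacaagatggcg

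Promoter entries were found for 35 of the 44 members, in 42 windows, and Kpna3 is among the members without one. CCAAT occurred in 10 of 22 carrier windows and 11 of 20 pore subunit windows, and in 33.8% of all 32851 RefSeq windows of this length. The GC box letters occurred in 13 of 22 carrier and 13 of 20 pore windows against 32.7% of all windows. The NRF1 motif occurred in 3 of 22 and 3 of 20 windows against 3.74%. By gene these were 2 of 18 carriers and 3 of 17 pore subunits, the carrier count being lower because both windows of Ipo9 hold it and overlap. The TATA box letters occurred in 2 of 22 and 2 of 20 against 12.4%. The cyclic AMP response element TGACGTCA occurred in 0 of 22 and 2 of 20 windows against 1.55%, and the E2F site TTTCCCGC in 0 of 22 and 1 of 20 against 0.895%. The median GC content was 64.2% in the members' windows and 52.4% over all windows. Among the 5 windows shown, Ipo7 held only a TATA box match, Kpna4 and Xpo1 held CCAAT and GC box matches, and Nup62 and Nup50 held these and the NRF1 motif. The choice of windows made this contrast. Nup62cl rose more in the libraries labelled Ad-shJP2 than Nup62 and Nup50 (log2 fold changes 1.56, 0.78 and 0.57), but its window is not shown. That window held CCAAT and GC box matches without the NRF1 motif. The remaining pore subunit with that motif, Nup107, was not called in either comparison with Ad-GFP. A match is a property of the letters and was not related to the expression values by any test.

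Jph2 itself was measured first, as a check on the labels. It stood at 132, 128 and 128 TPM, the length-corrected share of a library's transcripts, in Ad-GFP, at 737, 691 and 637 TPM in Ad-JP2, and at 117, 123 and 119 TPM in the libraries labelled Ad-shJP2. The Ad-JP2 libraries were 5.32-fold above control. The Jph2 message was not clearly lowered under the hairpin virus, with a log2 fold change of -0.11 ± 0.05 (SE; limma adjusted p = 0.072), and the exact two-sided permutation test of each of these comparisons gave p = 0.1, the smallest that 3 against 3 libraries allow. All 8 fibroblast markers were present at a mean of at least 1 TPM. They summed to 10627 to 10750 TPM in Ad-GFP, 10427 to 11198 in Ad-JP2 and 6961 to 7193 in the libraries labelled Ad-shJP2. Vim alone averaged 7263 TPM in Ad-GFP. In the libraries labelled Ad-shJP2 7 of the 8 were called lower and 1 higher, against 37.7% and 21.8% of all tested genes. With Ad-JP2 4 were called higher and 0 lower, against 13.4% and 1.64%. After adjustment for GC content and length, described further on, 1 was higher and 2 lower there, against 6.52% and 8.61%. Macrophage and leukocyte markers summed to 2401 to 2426, 2197 to 2238 and 2789 to 2837 TPM in the same order. Lyz2 alone averaged 1730 TPM in Ad-GFP. In the libraries labelled Ad-shJP2 4 of 7 were called higher and 2 lower, and with Ad-JP2 2 higher and 2 lower. Against the sum, Mrc1 had log2 fold changes of 1.22 with Ad-JP2 and -1.62 under the hairpin virus, and Ptprc 0.94 and -0.36. After the GC and length adjustment these were 0.74 and -0.96 for Mrc1, and 0.38 and 0.37 for Ptprc. Endothelial markers stayed between 29.9 and 40.5 TPM in sum, both erythroid markers were listed at 0, and of the 5 cardiomyocyte markers only Tnnt2 averaged 1 TPM or more. The part of these markers in the members' differences was not tested. Estimated depth was 40.5 to 45.7 M reads in Ad-GFP, 37.0 to 41.5 M reads in Ad-JP2 and 21.3 to 33.2 M reads in the libraries labelled Ad-shJP2.

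All levels in TPM are relative, and fewer cells of a type cannot be told apart from less RNA per cell. Of the 44 members, 41 reached at least 1 TPM in at least 3 libraries and were tested, namely 22 carriers and 19 pore subunits. Fold changes are differences of group means of log2(TPM + 1), which understates the change of low genes, with standard errors from 1 limma fit over 14215 genes. A member was called at a Benjamini-Hochberg adjusted p under 0.05.

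In Ad-GFP fibroblasts the carriers outweighed the pore subunits, with summed levels of 870 to 872 TPM against 338 to 344 TPM. Kpnb1, importin beta, led the family at 197 ± 5.78 TPM (SD, n = 3). Ipo5, which carries ribosomal proteins among other cargo, followed at 107 ± 1.94 TPM, Ipo4 at 92.3 ± 5.56 TPM and the transportin Tnpo2 at 59.9 ± 2.57 TPM. Each of these 4 stood apart from the next by more than the libraries' spread, while Xpot, the tRNA exportin, at 48.5 ± 4.87 TPM and Ipo9 at 46.6 ± 0.521 TPM overlapped. The highest pore subunits were Nup62 of the channel at 40.9 ± 1.47 TPM and Nup88 of the cytoplasmic filaments at 40.5 ± 0.946 TPM, which did not differ beyond their spread.

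The low end held genes of known importance for transport. Xpo1 (CRM1), the main export receptor for proteins with a leucine-rich signal, averaged 2.37 ± 0.700 TPM in Ad-GFP, and Kpna3 and Ipo7 averaged 5.12 ± 0.412 and 5.94 ± 0.496 TPM. Nup210, a membrane anchor of the pore found in some cell types only, reached 0.083 to 0.508 TPM there, and Nup210l 0.044 to 0.097 TPM. Kpna7, the importin alpha of oocytes and early embryos, was listed at 0 in all 3 Ad-GFP libraries, which at their estimated depth allows levels up to 0.0733 to 0.0824 TPM, the value of 3 reads. Its highest level anywhere was 0.363 TPM in 1 Ad-JP2 library. These 3 genes are the members that were not tested.

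With junctophilin-2 overexpression, 8 of 22 carriers were called higher and none lower: Ipo5, Ipo7, Ipo11, Tnpo1, Kpna1, Kpna3, Kpna4 and Xpo1. Of the 19 pore subunits, 2 were called higher, Nup98 and Nup153, and none lower. At an unadjusted p under 0.05 in limma, 12 carriers and 3 pore subunits lay higher, and 0 carriers and 1 pore subunit lower. Over all tested genes 13.4% were called higher and 1.64% lower. The family was chosen with this contrast known, and nothing is read from these shares. Library values of the 2 groups did not overlap for 14 carriers and 4 pore subunits, against 32.2% of all tested genes. The median log2 fold change was 0.14 for carriers, 0.03 for pore subunits and 0.01 for all tested genes. In that comparison quantile normalization moved the pore subunits' median to -0.05 and that of all tested genes to -0.06. Adjusting for transcript GC content and length, described further on, moved the carriers' to -0.12 and the pore subunits' to -0.11. The median of all genes in that adjusted fit was -0.02.

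Ipo7, an importin for ribosomal proteins and several signalling proteins, changed most. Its level was 5.69, 5.63 and 6.52 TPM in Ad-GFP, 21.4, 22.0 and 23.2 TPM in Ad-JP2, and 3.24, 3.31 and 3.89 TPM in the libraries labelled Ad-shJP2. The 3 groups did not overlap, and Ad-JP2 stood 3.73-fold above control. The log2 fold change was 1.74 ± 0.08 (SE; limma adjusted p = 4.0e-06) for Ad-JP2.

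The importins alpha Kpna3 and Kpna4, adaptors that share much of their sequence, both rose. Kpna4 stood at 29.2, 31.6 and 29.0 TPM in Ad-GFP, at 61.2, 60.8 and 63.4 TPM in Ad-JP2 and at 14.0, 14.1 and 14.1 TPM in the libraries labelled Ad-shJP2. Kpna3 stood at 4.78, 5.58 and 5.01 TPM in Ad-GFP, at 14.4, 14.2 and 14.8 TPM in Ad-JP2 and at 2.70, 2.31 and 2.33 TPM in the libraries labelled Ad-shJP2. Neither gene had overlapping groups. In Ad-JP2 Kpna4 was 2.06-fold and Kpna3 2.83-fold above control, with log2 fold changes of 1.02 ± 0.04 and 1.34 ± 0.08 (limma adjusted p = 2.4e-06 and 9.9e-06).

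Xpo1 rose from 2.92, 2.59 and 1.58 TPM in Ad-GFP to 6.76, 7.57 and 7.87 TPM in Ad-JP2, a log2 fold change of 1.34 ± 0.19 (limma adjusted p = 0.0014). In the libraries labelled Ad-shJP2 it stood at 0.688, 1.64 and 1.06 TPM. The Ad-JP2 values lay above all others, while the lowest Ad-GFP library fell inside the range of the hairpin group.

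The remaining called carriers moved less. Ipo11 had a log2 fold change of 0.44 ± 0.06, Tnpo1, the receptor of many RNA-binding proteins, 0.40 ± 0.05, Kpna1 0.36 ± 0.06 and Ipo5 0.14 ± 0.03. After the GC and length adjustment they had 0.06, -0.14, -0.15 and -0.18, and the first 3 were not called. The call of Ipo5 was lost without Ad-GFP replicate 2, Ad-JP2 replicate 1 or Ad-JP2 replicate 2, with limma adjusted p of 0.0521 to 0.0632. Kpnb1, the partner of the importins alpha, had 203, 198 and 191 TPM in Ad-GFP and 223, 211 and 207 TPM in Ad-JP2, values that did not overlap but missed the threshold (log2 fold change 0.11 ± 0.04, limma adjusted p = 0.078). Kpna2, the importin alpha that is most abundant in dividing cells, stood at 20.1, 19.6 and 20.1 TPM in Ad-GFP and at 20.2, 20.2 and 19.9 TPM in Ad-JP2.

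On the pore side, Nup153 of the nuclear basket had 7.72, 11.8 and 9.97 TPM in Ad-GFP and 18.01, 16.1 and 14.2 TPM in Ad-JP2, a log2 fold change of 0.67 ± 0.17 (limma adjusted p = 0.025). The groups did not overlap, but the call was lost without Ad-GFP replicate 1 or 3 or Ad-JP2 replicate 1 or 2, with adjusted p of 0.0651 to 0.0919. Nup98, a channel protein that also binds chromatin, had a log2 fold change of 0.34 ± 0.05 (limma adjusted p = 0.0018). After the GC and length adjustment neither was called, at 0.35 and 0.02. Before it the inner ring (5 tested members), the Y complex (6) and the cytoplasmic filaments (2) had no called member (limma, unadjusted p under 0.05 for 1 of them, which lay lower), and their log2 fold changes ran from -0.14 for Nup35 to 0.33 for Nup160. After it 4 of them were called lower, Nup35 (-0.41), Nup205 (-0.26) and Nup188 (-0.22) of the inner ring and Nup214 (-0.27) of the filaments. Over all genes of that fit 6.52% were called higher and 8.61% lower. Nup35 was called lower also with quantile normalization (-0.28, limma adjusted p = 0.00705).

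**Figure D1:**
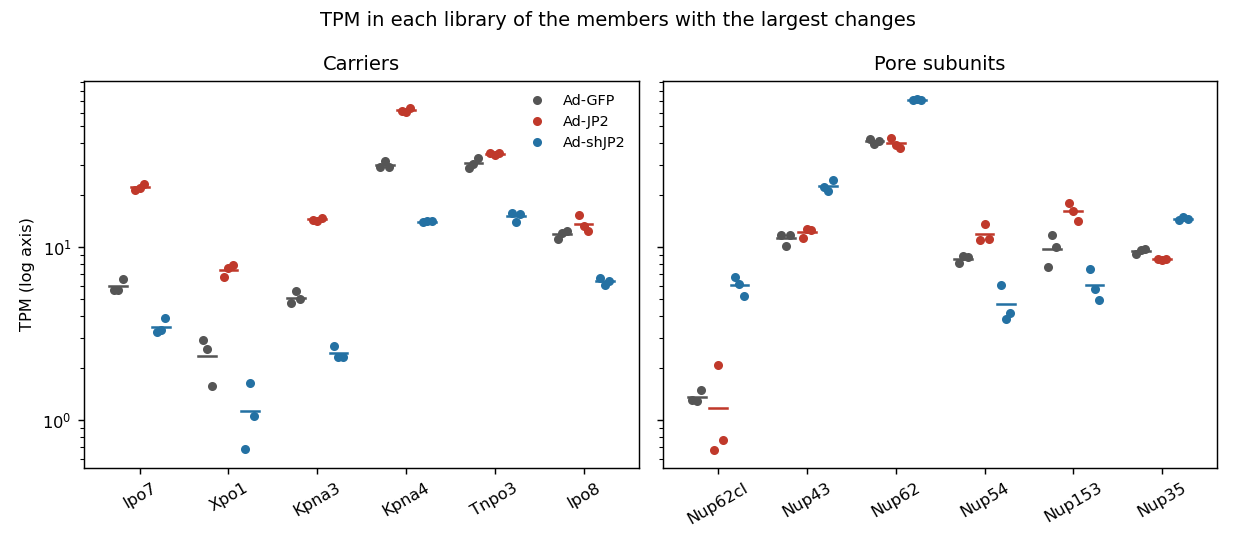
Level in TPM on a log axis in each of the 9 libraries for 6 carriers (left) and 6 pore subunits (right), with points for libraries, short lines for group means and colours for the virus. Ipo7, Xpo1, Kpna3 and Kpna4 were highest in Ad-JP2 (red), and Nup62cl, Nup43, Nup62 and Nup35 were highest in the libraries labelled Ad-shJP2 (blue).

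Under the hairpin virus the classes differed in the direction of most calls. Among the 22 carriers 6 rose and 12 fell, and among the 19 pore subunits 10 rose and 3 fell. Over all tested genes 21.8% were called higher and 37.7% lower, and the library values of 65.3% did not overlap, as was the case for 18 carriers and 13 pore subunits. The median log2 fold change was -0.24 for carriers, 0.31 for pore subunits and -0.11 for all tested genes. Scaling by median of ratios shifted the median of all genes to -0.02, and in that fit the median was -0.13 for carriers and 0.42 for pore subunits. After the GC and length adjustment the carriers' median turned to 0.20, with 12 higher and 3 lower, and that of the pore subunits was 0.69, with 14 higher and 1 lower. Over all genes of that fit 28.8% were called higher and 27.4% lower. The pore subunits' summed level was 433 to 444 TPM against 338 to 344 in Ad-GFP, and the carriers' 814 to 840 TPM against 870 to 872.

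The pore subunits that rose came from the inner ring, the Y complex, the channel and the basket. In the inner ring 4 of 5 rose: Nup35 by 0.58 ± 0.05, Nup93 by 0.49 ± 0.04, Nup188 by 0.49 ± 0.05 and Nup205 by 0.31 ± 0.06 (log2 fold change ± SE), while Nup155 had 0.14 ± 0.13 and did not pass before the GC and length adjustment (0.79 and called after it). Nup35 stood at 9.09, 9.59 and 9.77 TPM in Ad-GFP, 8.55, 8.47 and 8.60 TPM in Ad-JP2 and 14.5, 14.9 and 14.6 TPM in the libraries labelled Ad-shJP2. The hairpin libraries lay 1.54-fold above control with no overlap (limma adjusted p = 1.0e-05).

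In the Y complex 3 of 6 rose. Nup43, a peripheral subunit of that complex, stood at 11.8, 10.2 and 11.8 TPM in Ad-GFP, 11.3, 12.7 and 12.6 TPM in Ad-JP2 and 22.2, 21.1 and 24.3 TPM in the libraries labelled Ad-shJP2. The hairpin group alone stood apart, with a log2 fold change of 0.94 ± 0.08 (limma adjusted p = 8.6e-06). Nup85 had 0.57 ± 0.08 and Nup133 0.41 ± 0.10, while Nup107, Nup37 and Nup160 did not pass, at -0.07 ± 0.12, -0.08 ± 0.08 and -0.48 ± 0.26. Nup160 varied within groups, from 4.17 to 9.04 TPM in Ad-GFP.

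The channel was split. Nup62, the repeat protein at its centre, stood at 42.3, 39.4 and 41.2 TPM in Ad-GFP, 42.8, 39.1 and 37.6 TPM in Ad-JP2 and 71.0, 72.2 and 70.5 TPM in the libraries labelled Ad-shJP2. That was 1.74-fold above control, with no overlap and a log2 fold change of 0.78 ± 0.05 (limma adjusted p = 1.6e-06). Its partner Nup54 fell, from 8.07, 8.91 and 8.75 TPM in Ad-GFP to 6.08, 3.88 and 4.16 TPM, a log2 fold change of -0.77 ± 0.14 (limma adjusted p = 0.0013). Nup54 had 11.01, 13.7 and 11.2 TPM in Ad-JP2, above all Ad-GFP libraries, and did not pass there (0.43 ± 0.14, limma adjusted p = 0.079). The annotation places exon bases of Nup62 over Atf5 on the opposite strand (82 bases) and over Il4i1 on the same strand (88 bases). Atf5 averaged 467 TPM in Ad-GFP and 494 TPM in the libraries labelled Ad-shJP2, and Il4i1 under 1 TPM. The libraries were prepared with a stranded kit per the labels' protocols, but whether the counting used strand is not given in the sources used here, so the Nup62 level is uncertain to that extent.

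Nup62cl, named for its likeness to the C-terminal part of Nup62 and not an established part of the pore, had the largest change of any member in this comparison. Its levels were 1.31, 1.29 and 1.49 TPM in Ad-GFP, 0.674, 2.08 and 0.773 TPM in Ad-JP2 and 6.72, 6.13 and 5.20 TPM in the libraries labelled Ad-shJP2. The hairpin group was 4.41-fold above control and did not overlap with either other group (log2 fold change 1.56 ± 0.21, limma adjusted p = 0.0002). In the basket Nup50, which helps release cargo from importin alpha, rose by 0.57 ± 0.04. Nup153 fell to 7.47, 5.71 and 4.96 TPM, by 0.62 on the log2 scale (SE 0.17, limma adjusted p = 0.011), and had -0.10 after the GC and length adjustment. Nup98 fell by 0.38 (SE 0.05), and was called higher, at 0.14, after that adjustment. Of the cytoplasmic filaments neither Nup88 (0.05 ± 0.04) nor Nup214 (0.18 ± 0.08) passed. Both were called higher after the adjustment (0.33 and 0.44) and with median-of-ratios scaling (0.17 and 0.29).

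**Figure D2:**
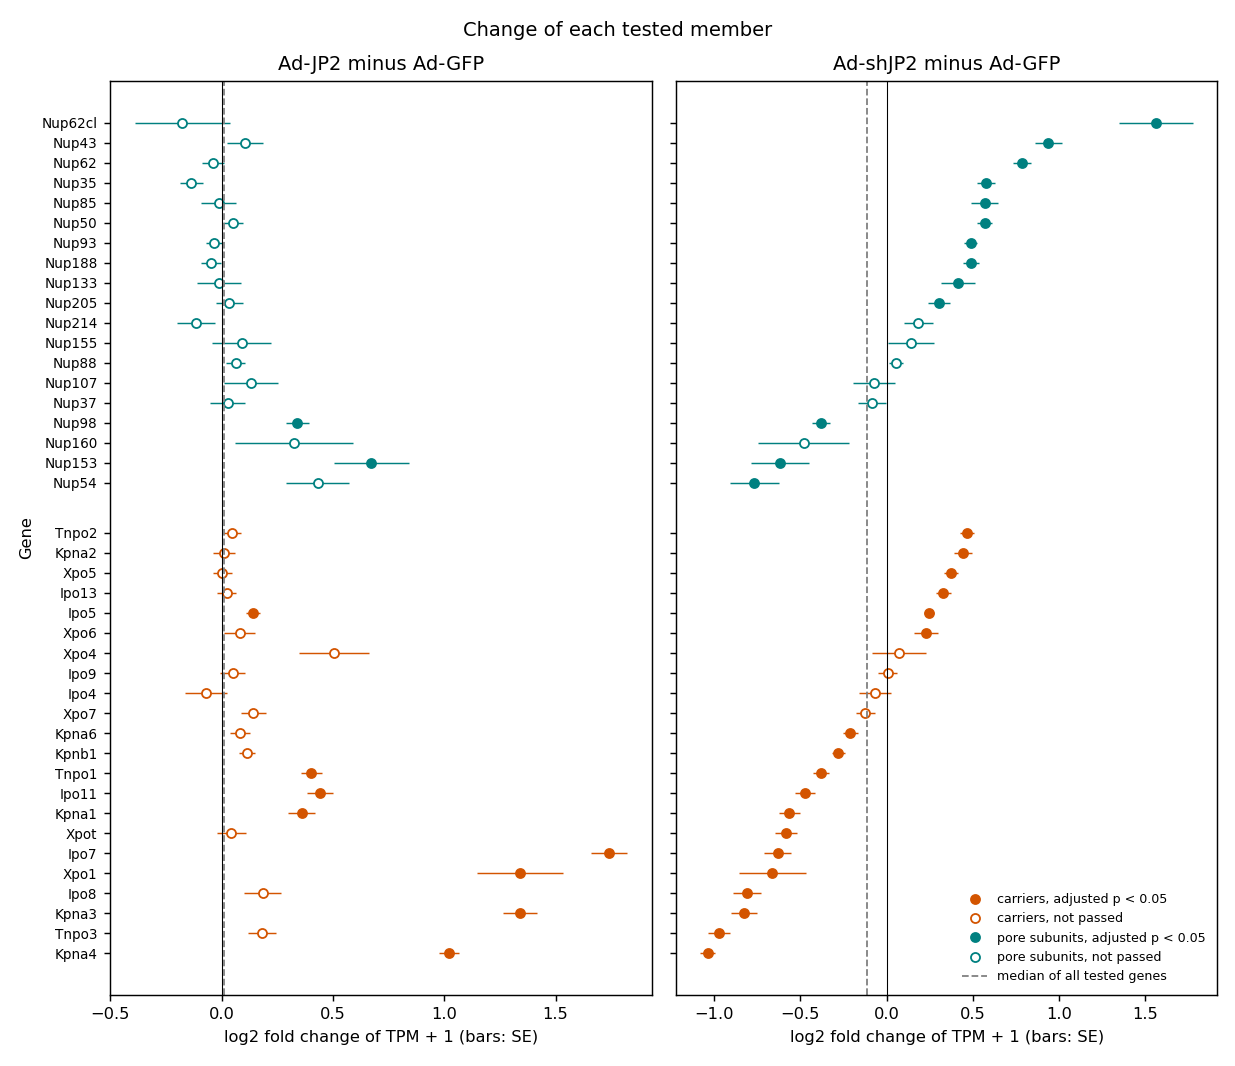
Log2 fold change of TPM + 1 for the 41 tested members with Ad-JP2 (left) and in the libraries labelled Ad-shJP2 (right), each against Ad-GFP, with bars for the SE, filled points for adjusted p under 0.05 and a dashed line at the median of all tested genes. Carriers (orange, below) reached 1.74 for Ipo7 with Ad-JP2, and 10 of 19 pore subunits (green, above) were called higher in the libraries labelled Ad-shJP2. After the GC and length adjustment the carriers' median turned from 0.14 to -0.12 on the left and from -0.24 to 0.20 on the right.

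Among carriers in the libraries labelled Ad-shJP2, Kpna4 fell by 1.04 on the log2 scale (SE 0.04, limma adjusted p = 1.1e-07) and stood at 0.470 of the control mean. Tnpo3, the importer of serine/arginine-rich splicing factors, had 28.6, 30.3 and 32.8 TPM in Ad-GFP, 35.2, 34.1 and 34.9 TPM in Ad-JP2 and 15.8, 14.0 and 15.5 TPM in the libraries labelled Ad-shJP2. It fell by 0.97 (SE 0.06, limma adjusted p = 1.4e-06) with no overlap between groups. Exons of Tnpo3 and of Irf5, on the opposite strand, share 251 bases, and Irf5 averaged 11.6 TPM in Ad-GFP and 13.5 TPM in the libraries labelled Ad-shJP2. Ipo8, a close relative of Ipo7, had 11.2, 12.1 and 12.4 TPM in Ad-GFP, 15.4, 13.2 and 12.5 TPM in Ad-JP2 and 6.65, 6.07 and 6.37 TPM in the libraries labelled Ad-shJP2, and fell by 0.81 (SE 0.08, limma adjusted p = 3.0e-05).

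Kpna3 fell by 0.83 (SE 0.08), Xpot by 0.58 (SE 0.07), Ipo7 by 0.63 (SE 0.08) and Xpo1 by 0.66 (SE 0.19). None of these 4 was called after the GC and length adjustment, at -0.14, -0.17, 0.045 and 0.039. The Xpo1 call was lost without Ad-GFP replicate 1 or 2 or the library labelled Ad-shJP2 replicate 1, with limma adjusted p of 0.051 to 0.0574. Kpna1, Ipo11, Tnpo1, Kpnb1 and Kpna6 fell by 0.56, 0.47, 0.38, 0.28 and 0.21, and all 5 had positive values after the adjustment, with Tnpo1, Kpnb1 and Kpna6 called higher. Kpnb1 had 167, 163 and 158 TPM, below all Ad-GFP libraries.

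The 6 carriers that rose were Tnpo2 (0.47 ± 0.04), Kpna2 (0.44 ± 0.05), Xpo5 (0.37 ± 0.04), Ipo13 (0.33 ± 0.04), Ipo5 (0.25 ± 0.03) and Xpo6 (0.23 ± 0.07). Xpo5 exports pre-miRNAs, and Xpo6 exports actin with profilin. Kpna2 stood at 25.6, 27.8 and 29.1 TPM, above all 6 other libraries (limma adjusted p = 5.9e-05). The importins alpha thus did not move together: Kpna2 rose while Kpna1, Kpna3, Kpna4 and Kpna6 fell, although Kpna1 and Kpna6 had positive values after the adjustment. The Xpo6 call was lost without Ad-GFP replicate 1 or the library labelled Ad-shJP2 replicate 2, with limma adjusted p of 0.0662 and 0.0605.

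Set directly against each other, Ad-JP2 lay above the libraries labelled Ad-shJP2 for 14 carriers and below for 5. Of the pore subunits 4 lay above and 11 below. Over all tested genes 40.3% lay above and 24.1% below. Ipo7 was 6.38-fold, Xpo1 6.56-fold, Kpna3 5.92-fold and Kpna4 4.39-fold higher in Ad-JP2, with no overlap for any of them. Median differences on the log2 scale were 0.41 for carriers, -0.30 for pore subunits and 0.10 for all tested genes. After the GC and length adjustment they were -0.35, -0.77 and -0.02, with 5 carriers above and 13 below, and 2 pore subunits above and 15 below, against 29.0% of all genes above and 33.1% below in that fit.

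The members' fold changes were set against the GC content of their longest annotated transcript, a property the choice of members did not use. Carriers had a median GC content of 45.3%, pore subunits 47.5% and all tested genes 50%. Of the 22 tested carriers 18 lay below the median of all genes, among them all 8 that rose with Ad-JP2, and the 4 that rose most, Ipo7, Xpo1, Kpna3 and Kpna4, lay between 39.6% and 40.4%. Across the 22 carriers Spearman's rho between GC content and the Ad-JP2 change was -0.86, across the 19 pore subunits -0.22 and across 14025 genes -0.41. For the libraries labelled Ad-shJP2 the values were 0.60, 0.11 and 0.34. GC content was not the only property that went with the carriers' Ad-JP2 change. Spearman's rho was -0.84 with the effective length as a share of the full length and -0.72 with the mean level. These are descriptions across genes measured in the same libraries, and genes are not independent replicates.

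Medians were also taken within bands of GC content. Below 44% GC the median log2 fold change with Ad-JP2 was 0.50 for 9 carriers, 0.03 for 5 pore subunits and 0.26 for 2497 genes. The medians of the libraries labelled Ad-shJP2 in that band were -0.56, 0.58 and -0.42. The pore subunits of that band included Nup62cl, Nup35 and Nup43. Between 44% and 48% the order of carriers and pore subunits was the opposite in both comparisons. With Ad-JP2 the medians were 0.14 for 7 carriers, 0.33 for 6 pore subunits and 0.08 for 2912 genes, and in the libraries labelled Ad-shJP2 -0.28, -0.43 and -0.24. From 48% to 52% and from 52% upwards the Ad-JP2 medians were 0.05 and 0.02 for carriers and -0.01 and -0.05 for pore subunits. In the libraries labelled Ad-shJP2 the medians from 48% to 52% were 0.0065 for 3 carriers, 0.49 for 5 pore subunits and -0.09 for all genes, and those from 52% upwards 0.33 for 3 carriers, 0.49 for 3 pore subunits and 0.03 for all genes.

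**Figure D3:**
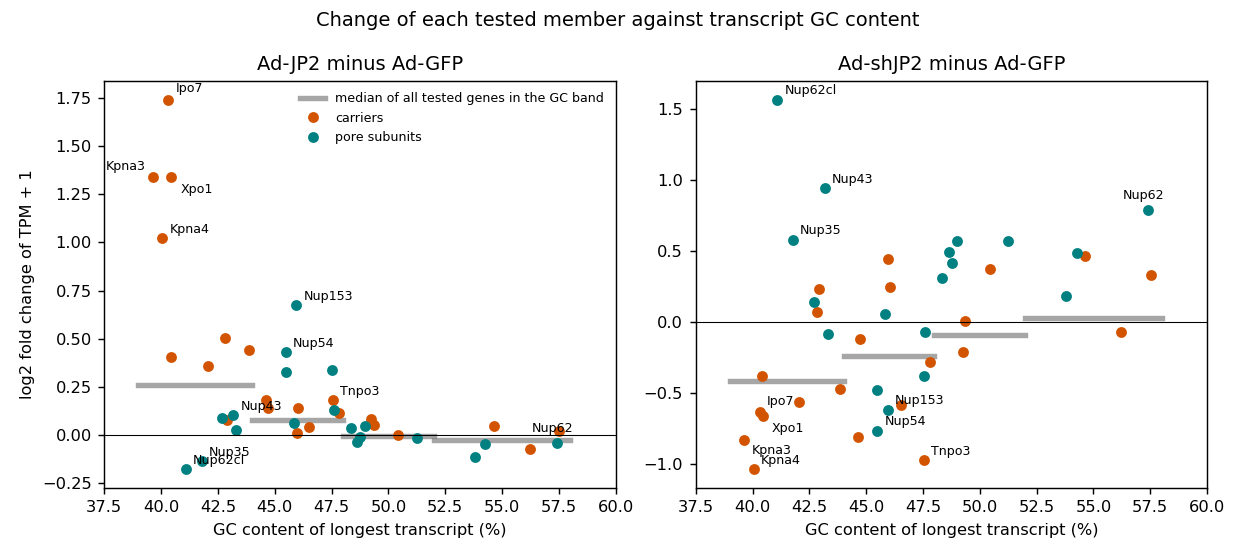
Log2 fold change of TPM + 1 against the GC content in percent of each tested member's longest transcript, with Ad-JP2 (left) and in the libraries labelled Ad-shJP2 (right), each against Ad-GFP, with grey bars for the median of all tested genes in 4 bands of GC content. Carriers (orange) below 44% GC lie mostly above 0 on the left and below 0 on the right, and Nup62cl, Nup43 and Nup35 (green) lie above 0 on the right.

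When the trend of all genes with GC content and transcript length was removed from each library, 4 carriers remained called higher with Ad-JP2, at 1.23 for Ipo7, 0.82 for Kpna3, 0.81 for Xpo1 and 0.53 for Kpna4. The adjustment did not include the effective length as a share of the full length. These 4 carriers had the lowest shares of the tested members, from 43.35% for Xpo1 to 52.15% for Kpna4. The median over the tested carriers was 78.2%. The part of this share in their values was not tested. In the adjusted fit 6 carriers and 4 pore subunits were called lower, among them Ipo5 at -0.18 and Nup35 at -0.41. Over all 14025 genes 6.52% were called higher and 8.61% lower. In the libraries labelled Ad-shJP2, Kpna4 (-0.39), Tnpo3 (-0.58), Ipo8 (-0.23) and Nup54 (-0.51) were the 4 members still called lower. The rises of Nup62cl (1.88), Nup43 (1.21), Nup35 (0.90) and Nup62 (0.75) were called in both fits. Ipo7, Xpo1 and Kpna3, which fell before the adjustment, had 0.045, 0.039 and -0.14 after it and were not called.

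**Figure D4:**
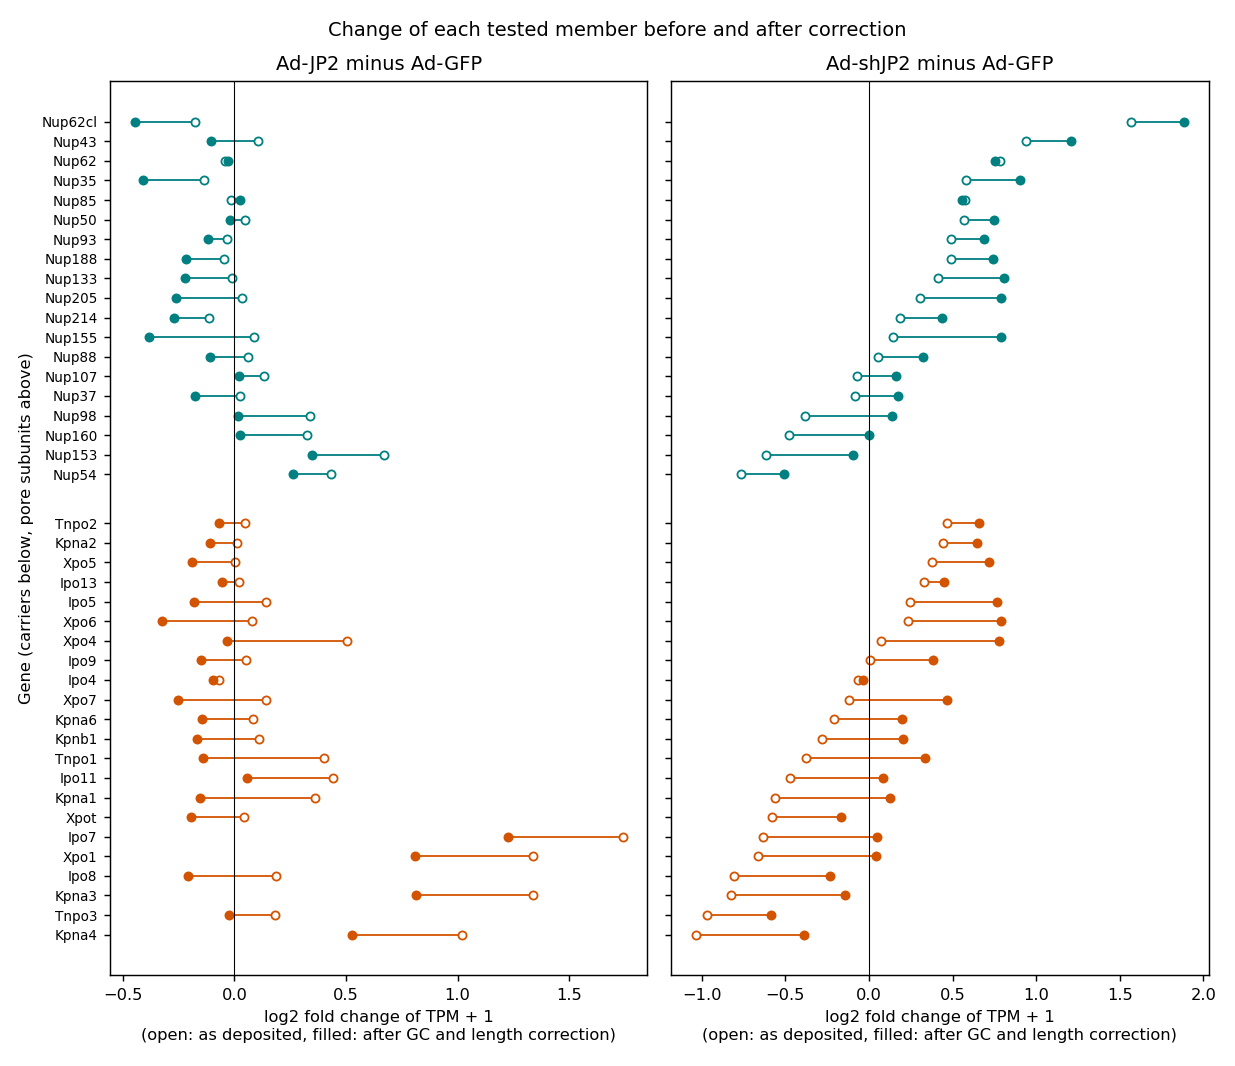
Log2 fold change of TPM + 1 of the 41 tested members before (open) and after (filled) removal of each library's trend with GC content and transcript length, with Ad-JP2 (left) and in the libraries labelled Ad-shJP2 (right), each against Ad-GFP. Most points shift to the left with Ad-JP2 and to the right in the libraries labelled Ad-shJP2, and Ipo7 stays rightmost on the left panel at 1.23.

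The other genes of the pathway were read from lists of known members. Of 9 tested genes of the Ran system 0 were called with Ad-JP2, while 7 rose and 0 fell in the libraries labelled Ad-shJP2 (median 0.44). The shares of all tested genes were 13.4% higher and 1.64% lower with Ad-JP2, and 21.8% and 37.7% in the libraries labelled Ad-shJP2. At an unadjusted p under 0.05 in limma the counts were 1 higher and 2 lower with Ad-JP2, and 7 higher and 0 lower in the libraries labelled Ad-shJP2. Rangap1, the GTPase activator, rose by 0.92 ± 0.03 from a mean of 71.2 to 135 TPM (limma adjusted p = 2.7e-08). Rcc1, the exchange factor, rose by 0.81 ± 0.05, Ranbp1 by 0.66 ± 0.04 and Ran itself by 0.44 ± 0.05. All 4 had values of 0.53 or more after the GC and length adjustment.

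Of 17 tested mRNA export genes 1 rose with Ad-JP2, Nxt2 at 0.61 ± 0.16, and 9 rose and 3 fell in the libraries labelled Ad-shJP2, to be read against the same shares of all genes. Nxt2 was not called with Ad-JP2 after the GC and length adjustment, at 0.15, and 3 others of the 17 were called lower there. Over all genes of that fit 6.52% were called higher and 8.61% lower with Ad-JP2. In the libraries labelled Ad-shJP2 that fit called 11 of the 17 higher and 1 lower, against 28.8% and 27.4% of all genes. The helicase Ddx39a rose by 1.11 ± 0.03, the export receptor Nxf1 by 0.89 ± 0.07 and its partner Nxt1 by 0.84 ± 0.06. Ddx39a has a close paralogue, Ddx39b (0.46 ± 0.03), and reads of the 2 may not be fully separable. Nxt2, the paralogue of Nxt1, fell by 1.25 (SE 0.16), Thoc1 by 0.78 (SE 0.16) and Thoc7 by 0.41 (SE 0.07). Nxt1 and Nxt2 thus had opposite directions in the same libraries, also after the adjustment (0.71 and -0.71). Thoc1 and Thoc7 were not called after it, at -0.40 and -0.02.

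**Figure D5:**
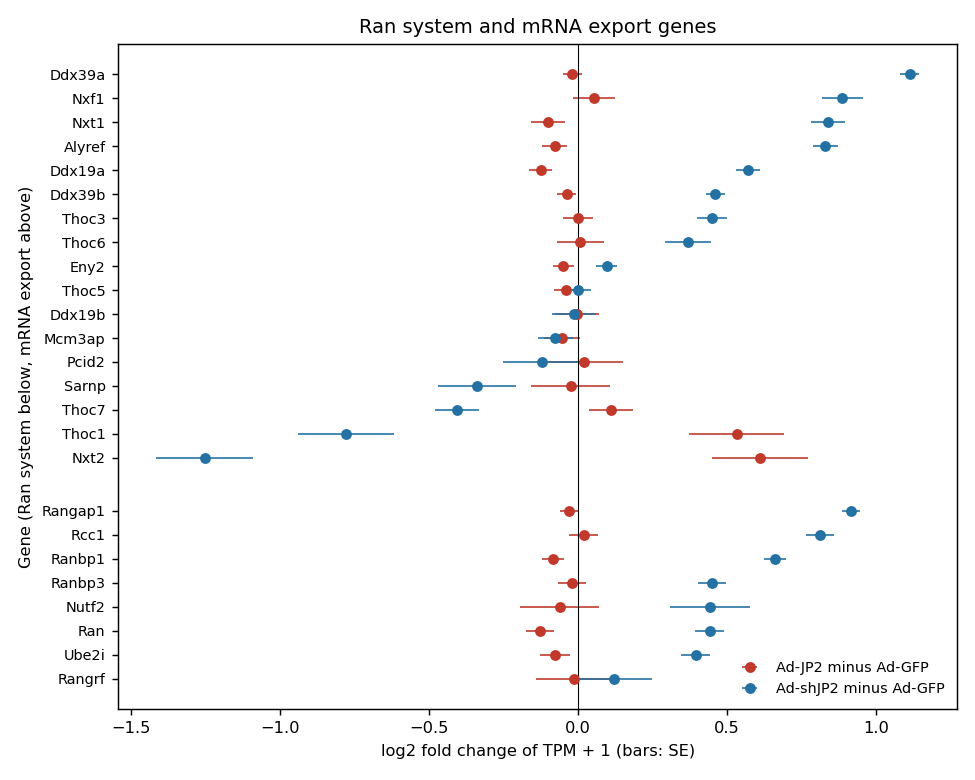
Log2 fold change of TPM + 1 with its SE for 8 genes of the Ran system (below) and 17 tested mRNA export genes (above), for Ad-JP2 (red) and the libraries labelled Ad-shJP2 (blue), each against Ad-GFP. Red points lie near 0 except Nxt2 and Thoc1, and blue points reach 0.92 for Rangap1, 1.11 for Ddx39a and -1.25 for Nxt2.

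Of 9 tested pore genes with other symbols 1 rose with Ad-JP2, Ahctf1 (ELYS, which seeds pores on chromatin), by 1.09 ± 0.12 (limma adjusted p = 0.00033) and by 0.58 after the GC and length adjustment. Of the same genes 3 rose in the libraries labelled Ad-shJP2, Aaas (0.52), Pom121 (0.45) and Rae1 (0.14), and 3 fell, Ahctf1 (-0.997), Seh1l (-0.42) and Sec13 (-0.09). The share called higher with Ad-JP2 was thus 11.1%, against 13.4% of all tested genes. In the libraries labelled Ad-shJP2 33.3% were higher and 33.3% lower, against 21.8% and 37.7% of all tested genes. After the adjustment Ahctf1 (-0.33), Seh1l (0.11) and Rae1 (0.04) were not called. Tpr, the largest basket protein, averaged 2.72 TPM in Ad-GFP and did not pass in either comparison, and Ranbp2, the large filament protein, was under the filter at 0.489 TPM. Of the older symbols, Nupl2 rose by 0.32 in the libraries labelled Ad-shJP2 (limma adjusted p = 0.0072), and Nupl1 was listed at 0 in Ad-GFP.

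Of 4 tested carriers with other symbols, Ranbp6 rose with Ad-JP2 (0.57 ± 0.16, limma adjusted p = 0.042) at a mean of 1.35 TPM, and had 0.05 after the GC and length adjustment. Cse1l, the exporter that returns importin alpha to the cytoplasm, fell by 0.30 (SE 0.09) in the libraries labelled Ad-shJP2 and was called higher, at 0.26, after the adjustment. Of 12 genes of the nuclear lamina and its cytoskeletal links, 3 rose with Ad-JP2, Syne1 (0.92), Syne2 (0.76) and Lemd3 (0.54), of which only Syne1 was called after the adjustment (0.55). Of these genes 6 rose in the libraries labelled Ad-shJP2, led by Lmnb1 (0.72), Lmnb2 (0.48) and Tmpo (0.42), and 3 fell, among them Lemd3 by 1.05. After the adjustment 7 were called higher and 2 lower there, against 28.8% and 27.4% of all genes in that fit. Before it 13.4% of all tested genes were called higher and 1.64% lower with Ad-JP2. In the libraries labelled Ad-shJP2 these shares were 21.8% and 37.7%.

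Genes of the cell cycle moved in the same libraries as the pore subunits. Of 11 tested proliferation genes 9 rose and 0 fell in the libraries labelled Ad-shJP2, with Ccne1 at 2.50, Aurka at 1.38 and Mcm5 at 1.17 and a median of 0.94. Over all tested genes 21.8% were called higher and 37.7% lower. At an unadjusted p under 0.05 in limma 9 lay higher and 1 lower. With Ad-JP2 2 rose, Top2a (1.45) and Bub1 (1.09), and Cdk1 fell by 0.19, while Bub1 was not called after the GC and length adjustment (0.64). Before it these were 18.2% higher and 9.09% lower of the 11, against 13.4% and 1.64% of all tested genes. The part of these genes in the pore subunits' rise was not tested.

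The 5 tested genes whose levels were most like those of Ipo7 over the 9 libraries, by Pearson's r on log2(TPM + 1), were Zbed6, Bpnt2, Zbtb1, Zmynd11 and Lats1, with r from 0.994 to 0.996. Their longest transcripts had GC contents of 39.2% to 45.3%. The 9 libraries form 3 groups, so a high r reflects the group means and is given without a p.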

How the data were processed

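The authors deposited 1 table of TPM per gene with gene names and lengths, and per the labels' protocols the libraries were stranded polyA RNA. Per the submitters' processing notes DRAGEN, Salmon and DESeq2 were used with GRCm39; no source used here says which tool made which value or in which version. The deposited TPM values hold no counts, so depth was estimated from the steps of low values, which came out within 0.1 of whole reads for 94.3% of low genes in Ad-GFP replicate 3 and for 32.4% to 59.4% in the other libraries, so no count test was run. TPM were tested as log2(TPM + 1) with limma 3.58.1 in R 4.3.3, with a mean-variance trend, over 14215 genes of at least 1 TPM in at least 3 libraries, with 3 group means and Benjamini-Hochberg adjustment. GC content came from GENCODE vM21 transcripts for 14025 genes (98.7%), and the adjustment removed natural splines with 5 degrees of freedom each for GC content and log2 length from every library. The script was tested on simulated data. Members and lists were chosen with earlier results of these data known. Values per library are given for the 6 carriers and 6 pore subunits with the largest called change, plus Kpnb1 and Kpna2, and up to 3 genes per list and comparison by the same measure; a few others are named with their list. Other scalings, pseudocounts, filters, a replicate block and leaving out each library were tried. 1 gene of a pathway list is not reported here.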

Additional observations from a re-analysis of the deposited data

How the results depend on the processing

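The adjustment for GC content and transcript length changed the results most. With Ad-JP2 it left 4 members called higher in place of 10 and made 10 lower in place of 0, where over all genes it left 6.52% higher and 8.61% lower. In the libraries labelled Ad-shJP2 it gave 26 higher and 4 lower in place of 16 and 15, which is 86.7% of calls higher against 51.6% (28.8% and 27.4% of all genes higher and lower). Between Ad-JP2 and those libraries it gave 7 above and 28 below in place of 18 and 16 (29.0% and 33.1% of all genes). The carriers' medians became -0.12, 0.20 and -0.35 in the 3 comparisons, and those of the pore subunits -0.11, 0.69 and -0.77.

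With that adjustment the Ad-JP2 values turned to -0.18 for Ipo5, -0.15 for Kpna1, -0.14 for Kpna6, -0.17 for Kpnb1, -0.26 for Nup205, -0.14 for Tnpo1, -0.19 for Xpo5, -0.32 for Xpo6 and -0.25 for Xpo7. In the libraries labelled Ad-shJP2 they turned to 0.082 for Ipo11, 0.045 for Ipo7, 0.12 for Kpna1, 0.20 for Kpna6, 0.20 for Kpnb1, 0.14 for Nup98, 0.34 for Tnpo1, 0.039 for Xpo1 and 0.46 for Xpo7. Between Ad-JP2 and those libraries they turned to -0.025 for Ipo11, -0.54 for Ipo9, -0.28 for Kpna1, -0.34 for Kpna6, -0.37 for Kpnb1, -0.35 for Nup37, -0.43 for Nup88, -0.12 for Nup98, -0.48 for Tnpo1, -0.81 for Xpo4, -0.72 for Xpo7 and -0.024 for Xpot. Nup88 turned to -0.12 there also with median-of-ratios scaling.

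Median-of-ratios scaling moved the medians in the libraries labelled Ad-shJP2 to -0.13 for carriers and 0.42 for pore subunits, and those between Ad-JP2 and these libraries to 0.29 and -0.43. The medians of all genes became -0.02 and -0.01 in these comparisons. Quantile normalization gave 1 member lower with Ad-JP2, where over all 14215 genes 748 were lower in place of 233. The carriers' and pore subunits' medians were 0.095 and -0.051 there, -0.19 and 0.42 in the libraries labelled Ad-shJP2, and 0.27 and -0.50 between the 2 groups. Those of all genes were -0.058, 0.023 and -0.11 in the same order. Between the 2 groups the carriers' median was 0.46 with a pseudocount of 0.1 and 0.34 at a mean of at least 5 TPM. Leaving out each library in turn gave 8 to 11 members higher and 0 lower with Ad-JP2, 15 to 17 higher and 14 to 15 lower in the libraries labelled Ad-shJP2, and 16 to 18 above and 16 below between the 2. The medians ranged from 0.12 to 0.15, -0.26 to -0.23 and 0.35 to 0.49 for carriers, and from 0.0078 (without Ad-GFP replicate 3) to 0.0495, 0.27 to 0.35 and -0.32 to -0.26 for pore subunits. The cause of these shifts was not tested.

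Deviations from the group means had correlations of -0.11 to 0.11 between same-numbered libraries and of -0.20 to 0.16 between differently numbered ones. Deviations within a group of 3 offset each other, so these values cannot tell whether same-numbered libraries shared a source. A replicate block gave 11 members higher with Ad-JP2, Kpnb1 being the added one (limma adjusted p = 0.023), and moved no other count. The lower depth of the libraries labelled Ad-shJP2 and the low levels of Xpo1, Kpna3 and Ipo7 limit the precision of those values.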
